A study of Triticum aestivum with 6 samples.

Results

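TraesCSU identifiers mark wheat genes that the reference annotation puts on scaffolds not assigned to any chromosome. The 100 TraesCSU genes with the highest mean FPKM over the 6 endosperm libraries are described here, out of 2729 TraesCSU genes and 127196 genes listed in all. FPKM is the number of fragments divided by the length of the transcript and by the total of the library, so levels can be set side by side between genes. The 100 genes were chosen by their level in these same libraries, and their abundance is therefore a description with no test. Of the 2729 TraesCSU genes, 1829 were at 0 in every library, 900 had a value above 0 in at least 1 library, and 390 reached the mean of 0.5 FPKM needed for testing. All 100 chosen genes were among the 390, and their means ran from 8.05 to 9744 FPKM.

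RNA was taken from the endosperm of field-grown grains of the winter wheat cultivar Zhoumai36 at 25 days after anthesis, with 3 libraries from the innermost endosperm (IE) and 3 from the remaining endosperm (RE). After the pericarp was removed, the central lobe zones of the middle grain section were dissected by hand as IE, and what was left was RE, a mixture of the living aleurone and the outer starchy endosperm. The study grew its plants with low and high nitrogen, but the labels of these libraries carry only the region and a replicate number, so the nitrogen level is unassigned and the only contrast made is that of IE with RE. The methods give 3 biological replicates, while the labels tie no library to a plot, so p-values measure the spread between these libraries, which may be technical. In such bulk samples, fewer cells of a type and less RNA per cell cannot be told apart.

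The bread wheat genome is hexaploid, with A, B and D subgenomes whose genes are often close copies of each other. Long runs of repeated sequence and tandem families of near-identical genes are difficult to assemble, and stretches that could not be tied to a chromosome were left as unplaced scaffolds. Starchy endosperm fills with starch and storage proteins during grain filling. Gliadins, which are prolamins and form gluten together with the glutenins, are encoded by tandem families, while the globulins of the grain include storage proteins of the embryo and aleurone. In the text of the study, 1 of the 100 genes is named with a function, the gliadin TraesCSU01G153800. The identifiers of 0 of the 100 matched the gene table used here, so the other 99 genes are given by identifier alone, with no function and no position.

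By totals recovered from the FPKM values, the libraries held between 13959933 fragments on genes (IE replicate 3) and 21766392 (IE replicate 2). On these totals, the shallowest and the deepest library both belong to IE. For a gene of 1 kb, a floor of 3 fragments equals 0.138 FPKM in the deepest library and 0.215 FPKM in the shallowest. Between 663 and 713 TraesCSU genes had a value above 0 in the RE libraries, and between 611 and 725 in the IE libraries. Storage-protein genes that the study names were looked up in these libraries. The study had picked them out by comparing the regions under high nitrogen, the gliadin as higher in IE and the globulins as higher in RE. They are therefore no independent check of the region labels. The gliadin TraesCSU01G153800 was detected in all 6 libraries, and so were the globulins. In FPKM, TraesCS4D01G171800 had a mean of 249 ± 133 over the IE libraries and of 425 ± 106 over the RE libraries (SD, n = 3 each). Its groups overlapped (limma adjusted p = 0.509), since IE replicate 2, at 403 FPKM, lay above RE replicates 1 and 2, at 356 and 372 FPKM. TraesCS7D01G351300 was much lower, with 2.86 ± 2.96 over IE and 3.86 ± 2.44 over RE (SD, n = 3 each). Its groups overlapped as well (limma adjusted p = 0.772), with 6.22 FPKM in IE replicate 2 and 2.01 and 2.93 FPKM in RE replicates 2 and 3. These are too few genes to name a cell type.

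Of the FPKM summed over a library, the 100 genes made up 3.43 ± 1.09% in IE and 2.96 ± 0.280% in RE (SD, n = 3 each). Their share was 3.21%, 2.47% and 4.61% in IE replicates 1, 2 and 3, and 3.20%, 3.03% and 2.65% in RE replicates 1, 2 and 3. The highest and the lowest share were both in IE, and the RE libraries lay between them. The difference between the regions, 0.465 percentage points, was smaller than the spread between the IE libraries (p = 0.7 in a two-sided exact permutation test, whose smallest possible p with 3 libraries a group is 0.1). Without IE replicate 3 it was -0.125 percentage points, so this library decides its direction. The other 2629 TraesCSU genes together took between 0.0563% and 0.0739% of a library.

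**Figure D1:**
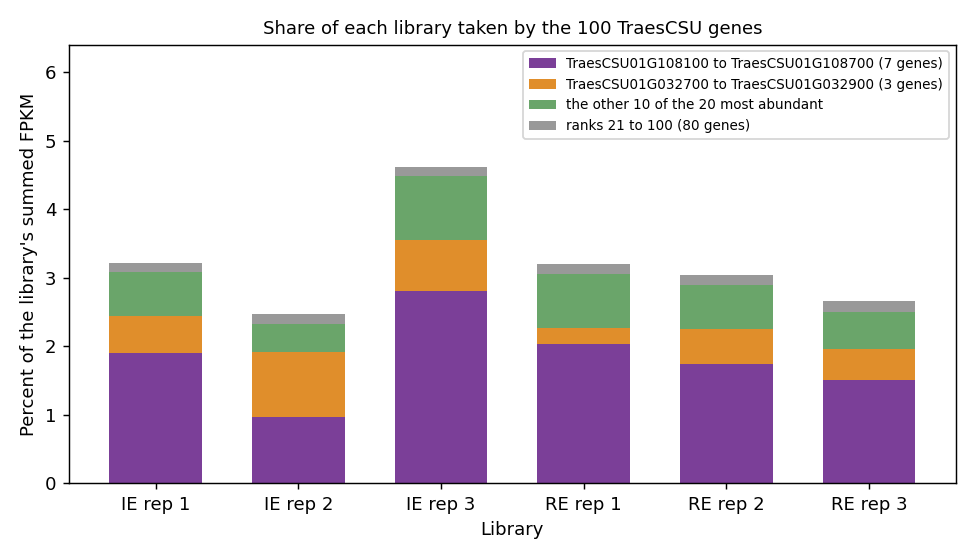
Percent of each library's summed FPKM (y axis) taken by the 100 genes in the 3 IE and 3 RE libraries (x axis), stacked by group of genes, with no error bars because each bar is 1 library. The bars reach from 2.47% in IE replicate 2 to 4.61% in IE replicate 3, and the run TraesCSU01G108100 to TraesCSU01G108700 differs most between them.

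Few of the genes carried nearly the whole share. The 20 genes averaging at least 100 FPKM held between 93.9% and 97.4% of the summed level of all 100, and the 9 averaging at least 1000 FPKM between 78.3% and 87.4%. The 80 genes ranked 21 to 100 added between 0.121% and 0.151% of a library. A further 11 genes had means of 100 to 1000 FPKM, 62 had means of 10 to 100 FPKM and 18 had means under 10 FPKM. Ranked among all genes by mean FPKM, the most abundant stood at 25 and the last of the 100 at 8785, and 8 of them were among the 100 most abundant genes of the endosperm. The last genes inside the limit were TraesCSU01G047900 at 8.18 FPKM, TraesCSU01G227400 at 8.13 FPKM and TraesCSU01G027400 at 8.05 FPKM. The first ones outside it were TraesCSU01G073200 at 7.96 FPKM, TraesCSU01G019500 at 7.94 FPKM and TraesCSU01G017600 at 7.79 FPKM. The limit therefore falls within a continuous range of levels.

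TraesCSU01G108700 was the most abundant gene, with 10845, 5701 and 14844 FPKM in IE replicates 1, 2 and 3 and 10230, 9586 and 7258 FPKM in RE replicates 1, 2 and 3. It alone took between 0.477% and 1.25% of a library and rested on 127932 to 213651 fragments. IE replicate 2 was its lowest library and IE replicate 3 its highest, and the groups overlapped (log2 fold change of IE relative to RE 0.12 with a standard error, SE, of 0.45, limma adjusted p = 0.949). Log2 fold changes here and below are on the log2(FPKM + 0.1) scale.

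All 7 identifiers from TraesCSU01G108100 to TraesCSU01G108700 were among the 20 most abundant. TraesCSU01G108100 had 5669, 2693 and 8007 FPKM in the IE libraries and 6663, 5368 and 5087 FPKM in the RE libraries. The means of the other 5 were 2050 FPKM for TraesCSU01G108400, 1957 FPKM for TraesCSU01G108500, 1173 FPKM for TraesCSU01G108200, 550 FPKM for TraesCSU01G108300 and 198 FPKM for TraesCSU01G108600. The identifiers on either side, TraesCSU01G108000 and TraesCSU01G108800, had means of 0.0453 and 0.0234 FPKM, so the high levels stop at the ends of the run. Identifier numbers give an order in the annotation and are not coordinates.

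Summed over the 7 genes, the level was 22249, 11509 and 33212 FPKM in the IE libraries and 23840, 19708 and 16997 FPKM in the RE libraries. The sum took between 0.963% and 2.81% of a library, which is between 39.0% and 63.5% of the level of all 100 genes. Every one of the 7 was highest in IE replicate 3 and lowest in IE replicate 2, at ratios between these libraries of 2.21 to 4.45. IE replicate 3 is also the shallowest and IE replicate 2 the deepest library, and the part of depth in this order was not tested. The log2 fold changes of the 7 lay between -0.19 and 0.28, with standard errors of 0.31 to 0.51, and 0 of them passed the test (limma adjusted p between 0.871 and 0.98).

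Within the run, the ratio of each gene to TraesCSU01G108700 varied between 1.40-fold and 1.71-fold over the 6 libraries. The ratio of TraesCSU01G108100 to TraesCSU01G108700 stayed between 0.472 and 0.701, and that of TraesCSU01G108500 to TraesCSU01G108700 between 0.165 and 0.232. The widest was that of TraesCSU01G108300, from 0.0388 to 0.0662. How the authors counted fragments that match several near-identical copies is not given in the sources used here. Whether the genes of the run are such copies was not tested. If they are, the levels of single genes in the run are uncertain, and so is their sum where further copies lie outside it. TraesCSU01G239000, which has a distant identifier number, also followed TraesCSU01G108700, at a ratio between 0.276 and 0.399.

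**Figure D2:**
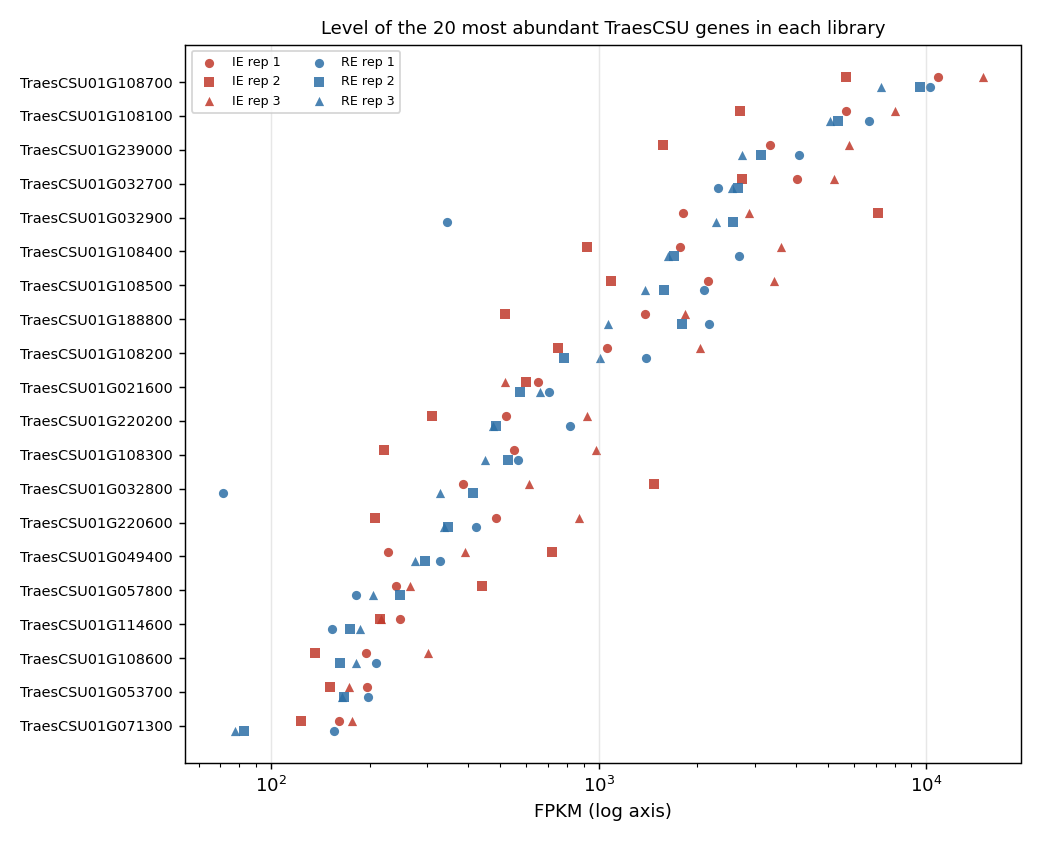
FPKM (x axis, log scale) of the 20 most abundant genes (y axis, most abundant at the top) in each library, with circles, squares and triangles for replicates 1, 2 and 3, IE in red and RE in blue. IE replicate 2 is the leftmost red point for all 7 genes of the run TraesCSU01G108100 to TraesCSU01G108700, and RE replicate 1 stands far to the left for TraesCSU01G032800 and TraesCSU01G032900.

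TraesCSU01G239000 had 3342, 1573 and 5801 FPKM in the IE libraries and 4082, 3126 and 2742 FPKM in the RE libraries. TraesCSU01G220200 and TraesCSU01G220600, with means of 587 and 445 FPKM, were likewise highest in IE replicate 3 and lowest in IE replicate 2. Of the 100 genes, 12 had this order of libraries, compared with 2.52% of all genes tested. The other 2 of the 12 are TraesCSU01G099900 and TraesCSU01G139700, named here after their values were seen. TraesCSU01G188800 was lowest in IE replicate 2 as well, at 518 FPKM, but highest in RE replicate 1, at 2174 FPKM. Its log2 fold change was -0.55 with an SE of 0.52 (limma adjusted p = 0.759), with 1388 and 1839 FPKM in the other IE libraries and 1796 and 1067 FPKM in the other RE libraries. It was -0.01 without IE replicate 2 and -0.92 without IE replicate 3.

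The second set of neighbours at high level was TraesCSU01G032700, TraesCSU01G032800 and TraesCSU01G032900. TraesCSU01G032700 had 4030, 2733 and 5237 FPKM in the IE libraries and 2316, 2659 and 2548 FPKM in the RE libraries. All its IE libraries were above all its RE libraries, with the nearest 2 at 2733 and 2659 FPKM (log2 fold change 0.63 with an SE of 0.34, limma adjusted p = 0.578). Leaving out IE replicate 3 lowered this value to 0.41. It was the only gene of the 9 at 1000 FPKM or more whose groups did not overlap.

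TraesCSU01G032900 had 1809, 7106 and 2876 FPKM in the IE libraries and 345, 2575 and 2283 FPKM in the RE libraries. TraesCSU01G032800 had 384, 1474 and 614 FPKM in the IE libraries and 71.4, 414 and 328 FPKM in the RE libraries. For each of them IE replicate 2 was the highest and RE replicate 1 the lowest library, 20.6 and 20.7 times apart. The groups overlapped, since IE replicate 1 lay below RE replicate 2. TraesCSU01G032800 had the largest positive log2 fold change of the 100 genes, 1.72 with an SE of 0.73 (limma adjusted p = 0.494), and TraesCSU01G032900 the next, 1.40 with an SE of 0.84 (limma adjusted p = 0.614). Without RE replicate 1, that of TraesCSU01G032800 fell to its lowest value over the libraries left out in turn, 0.93, and that of TraesCSU01G032900 to 0.46. Without IE replicate 2 the latter was 0.85.

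The ratio of TraesCSU01G032900 to TraesCSU01G032800 stayed between 4.68 and 6.96 over the 6 libraries, while that of TraesCSU01G032700 to TraesCSU01G032800 ran from 1.85 to 32.5. The 3 neighbours therefore did not share 1 profile. TraesCSU01G032800 and TraesCSU01G032900 are also short, with lengths of 288 and 505 bases recovered from the FPKM values against 1689 bases for TraesCSU01G032700. The 3 genes together took 0.533%, 0.947% and 0.737% of the IE libraries and 0.233%, 0.50% and 0.456% of the RE libraries. Their summed FPKM was highest in IE replicate 2, the library in which the run TraesCSU01G108100 to TraesCSU01G108700 was lowest. This order depends on the division by length. As a percent of the fragments recovered from the FPKM values, the 3 genes took 0.788%, 0.867% and 1.05% of IE replicates 1, 2 and 3. On that scale they were highest in IE replicate 3, as was the run TraesCSU01G108100 to TraesCSU01G108700. Of the 100 genes, 7 were highest in IE replicate 2 and lowest in RE replicate 1. Lists of the same size from the placed chromosomes held between 2 and 9 such genes.

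**Figure D3:**
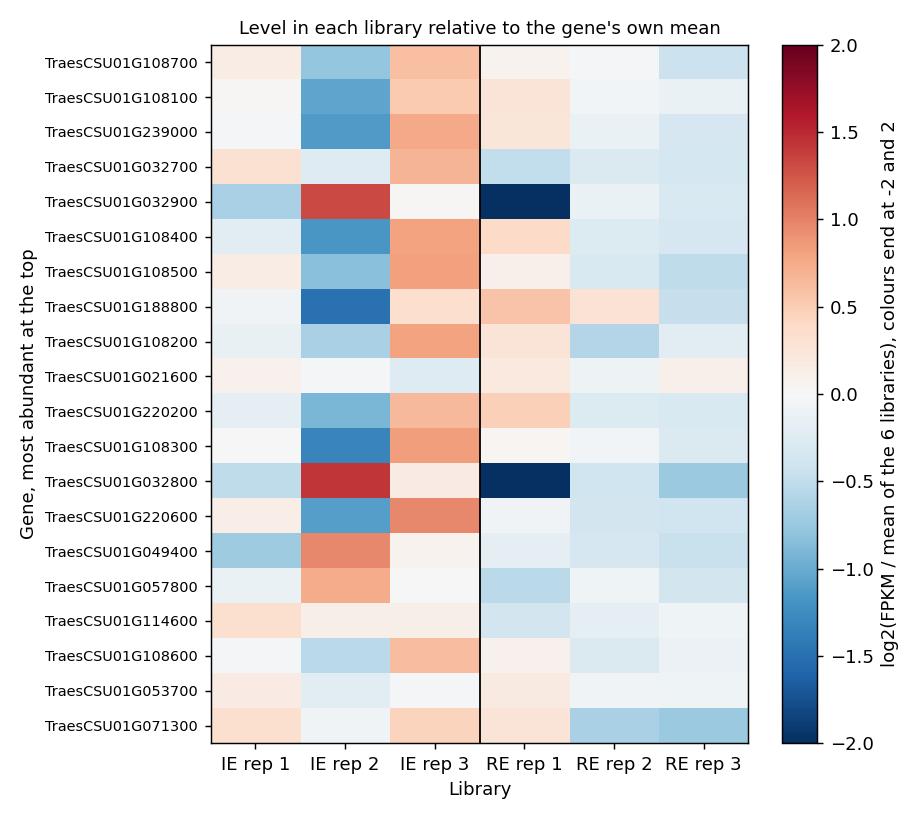
Level of each of the 20 most abundant genes (rows) in each library (columns), as the log2 ratio to the gene's own mean over the 6 libraries, from blue (lower) to red (higher), with colours ending at -2 and 2. The 7 genes TraesCSU01G108100 to TraesCSU01G108700 are blue in IE replicate 2 and red in IE replicate 3, whereas TraesCSU01G032800 and TraesCSU01G032900 are darkest red in IE replicate 2 and darkest blue in RE replicate 1.

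Of the remaining genes of the 20, TraesCSU01G021600 had 654, 598 and 516 FPKM in the IE libraries and 703, 573 and 659 FPKM in the RE libraries, a range of 1.36-fold. TraesCSU01G053700 had a range of 1.30-fold around a mean of 175 FPKM. TraesCSU01G114600 had 248, 215 and 217 FPKM in IE and 154, 174 and 187 FPKM in RE, so every IE library was above every RE library (log2 fold change 0.40 with an SE of 0.20, limma adjusted p = 0.56). TraesCSU01G071300 had 161, 123 and 176 FPKM in IE and 155, 82.9 and 77.8 FPKM in RE, where RE replicate 1 lay among the IE libraries. TraesCSU01G057800 and TraesCSU01G049400 were highest in IE replicate 2, at 441 and 722 FPKM against means of 263 and 373 FPKM. Without that library the log2 fold change of TraesCSU01G049400 was -0.00, against 0.42 with it.

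The gliadin TraesCSU01G153800 ranked 34 among the 100. It had 44.7, 31.9 and 50.4 FPKM in the IE libraries and 21.1, 24.4 and 25.5 FPKM in the RE libraries. Every IE library was above every RE library, at means of 42.3 ± 9.51 FPKM and 23.6 ± 2.26 FPKM respectively (SD, n = 3 each). The log2 fold change was 0.82 (standard error 0.23), and it stayed between 0.68 and 1.01 when each library was left out in turn. The gene missed the adjusted threshold (limma adjusted p = 0.363, unadjusted p = 0.00804). Its log2 fold change was also under the limit of 1 that a call required. The study had picked this gene out in a comparison of the same regions under high nitrogen, so its direction is not independent evidence.

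Across the 100 genes, the limma test called 0 as different between IE and RE (adjusted p up to 0.05 with a log2 fold change of 1 or more in either direction), where 0% of the 51830 genes tested were called. The smallest adjusted p of the 100 was 0.359, which was also the smallest of all genes tested. Limma-voom on the recovered fragments also called 0 of the 100. At an unadjusted p of at most 0.05, 15 of the 100 passed, of which 9 were higher in IE, compared with 2.91% of all genes tested, and 6 lower in IE, compared with 7.13%. With voom, 15 passed as well. Adding the limit on the fold change left 1 gene higher in IE, TraesCSU01G032800, compared with 1.64% of all genes, and 0 lower in IE, compared with 4.11%.

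The log2 fold changes of the 100 genes ran from -1.30 to 1.72. They were above 0 for 41 genes and below 0 for 59, and 67 lay within 0.5 of 0. Their median was -0.06, and that of all genes tested was -0.12. Scaling the libraries by the median ratio of their genes moved the median of all genes to 0.00 and that of the 100 to 0.06, and 58 of the 100 were then above 0. The direction of small changes therefore depends on the scaling. The median standard error was 0.25 for the 100 genes and 0.33 for all genes tested.

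**Figure D4:**
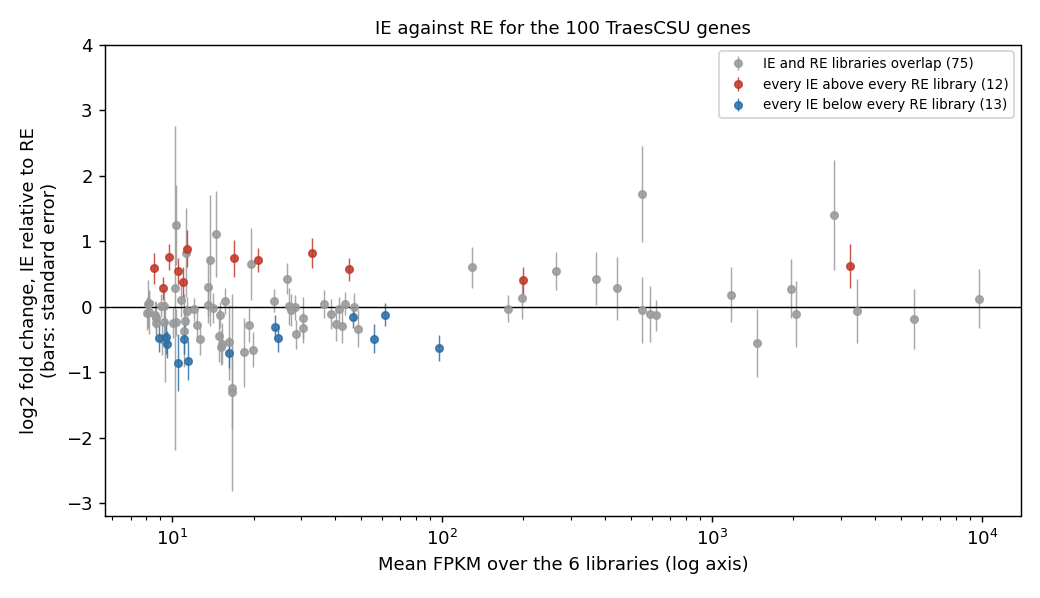
Log2 fold change of IE relative to RE (y axis, bars are standard errors from limma) against mean FPKM over the 6 libraries (x axis, log scale) for the 100 genes. The 12 genes with every IE library above every RE library are red, the 13 with every IE library below are blue, and only 2 of these 25 genes average at least 100 FPKM.

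Groups that did not overlap were found for 25 of the 100 genes. Every IE library was above every RE library for 12 genes, compared with 4.35% of all genes tested, 4.26% of the genes at least as abundant as the last of the 100, and between 2 and 8 genes in the lists of 100 from the placed chromosomes. Every IE library was below every RE library for 13 genes, compared with 11.9% of all genes tested, 14.8% of those at least as abundant, and between 7 and 18 genes in the placed lists. The first count was above the background and the second close to it. Among the 100 most abundant newly assembled genes, whose identifiers are not those of the reference annotation, the first count was 9 and the second 12. For the TraesCSU genes, the first count was 9 for the 100 genes ranked on the RE mean, and 8% for the 200 most abundant. With median-ratio scaling it was 13, compared with 6.81% of all genes tested. Leaving out each library in turn, it was 13% to 18%, compared with 6.58% to 9.15% of all genes tested. Without IE replicate 2, 31% of the 100 genes were below in every IE library, compared with 27.1% of all genes tested.

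Among the 12 genes higher in IE, TraesCSU01G122000 had the largest log2 fold change, 0.89 with an SE of 0.28 (limma adjusted p = 0.382). It had 10.3, 20.03 and 14.2 FPKM in the IE libraries and 8.11, 8.81 and 6.42 FPKM in the RE libraries. TraesCSU01G122800, named after its values were seen because its adjusted p was the smallest of the 100, had 28.5, 25.3 and 23.5 FPKM in IE and 15.0, 16.4 and 15.4 FPKM in RE. Its log2 fold change was 0.72 with an SE of 0.18 (limma adjusted p = 0.359).

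Among the 13 genes lower in IE, TraesCSU01G105300, also chosen after its values were seen, was the most abundant, with 84.5, 74.6 and 69.6 FPKM in IE and 127, 104 and 123 FPKM in RE (log2 fold change -0.63 with an SE of 0.20, limma adjusted p = 0.381). TraesCSU01G034700 had 10.5, 8.84 and 5.51 FPKM in IE and 11.1, 15.0 and 17.5 FPKM in RE (log2 fold change -0.83 with an SE of 0.30, limma adjusted p = 0.431). TraesCSU01G019400 had 14.7, 13.2 and 9.49 FPKM in IE and 20.5, 16.7 and 23.2 FPKM in RE (log2 fold change -0.70 with an SE of 0.24, limma adjusted p = 0.413). These 3 genes were lower in IE by more than their standard errors, but none passed the adjusted threshold. TraesCSU01G116400 was below in every IE library by a small margin, from 5.23 to 7.84 FPKM in IE and 8.46 and 8.55 FPKM in RE replicates 2 and 3, and reached 25.3 FPKM in RE replicate 1 alone. Its log2 fold change of -0.86 was -0.33 without RE replicate 1.

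The most negative log2 fold changes belonged to genes that differed widely within a region. TraesCSU01G262700 had 22.3, 28.0 and 0.271 FPKM in IE and 10.8, 11.8 and 27.0 FPKM in RE. The value in IE replicate 3 is 1 fragment, and the log2 fold change of -1.30 with an SE of 1.50 (limma adjusted p = 0.808) was 0.72 without that library. TraesCSU01G127200 had 7.81, 25.5 and 3.36 FPKM in IE and 21.02, 17.9 and 24.1 FPKM in RE (log2 fold change -1.24 with an SE of 0.63, limma adjusted p = 0.563). The IE libraries of this gene lay on either side of the RE libraries, and its value was -2.002 without IE replicate 2 (limma adjusted p = 0.0587) and -0.56 without IE replicate 3.

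The positive end held 2 further genes highest in IE replicate 2 and lowest in RE replicate 1. TraesCSU01G029700 had 7.54, 27.7 and 9.13 FPKM in IE and 2.36, 8.99 and 6.42 FPKM in RE (log2 fold change 1.25 with an SE of 0.61, limma adjusted p = 0.546). TraesCSU01G130200 had 8.18, 31.6 and 19.2 FPKM in IE and 3.19, 15.4 and 9.86 FPKM in RE (log2 fold change 1.11 with an SE of 0.65, limma adjusted p = 0.607). Without RE replicate 1 these values were 0.70 and 0.47, and without IE replicate 2 they were 0.68 and 0.66. Their groups overlapped, as did those of TraesCSU01G032800 and TraesCSU01G032900, so all 4 of the largest positive changes came with the same highest and the same lowest library.

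Some of the genes were almost even over the endosperm. For 8 of the 100, the highest library was at most 1.25 times the lowest, compared with 1.44% of all genes tested and 3.27% of the genes at least as abundant as the last of the 100. TraesCSU01G047900, the only one of these 8 named above, ran from 7.27 to 8.95 FPKM. At the other end, the highest library was more than 5 times the lowest, or the lowest was at 0, for 11 genes. TraesCSU01G260700, named after its values were seen, had 18.6 and 16.7 FPKM in IE replicates 1 and 2 and 13.8 and 12.3 FPKM in RE replicates 2 and 3, but was at 0 in IE replicate 3 and RE replicate 1. Counts of 0 allow up to 0.569 and 0.446 FPKM there (3 fragments per library, counting error only). TraesCSU01G262700 and TraesCSU01G260700 are the only genes of the 100 with fewer than 10 fragments in some library, and 77 had at least 100 fragments in every library.

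**Figure D5:**
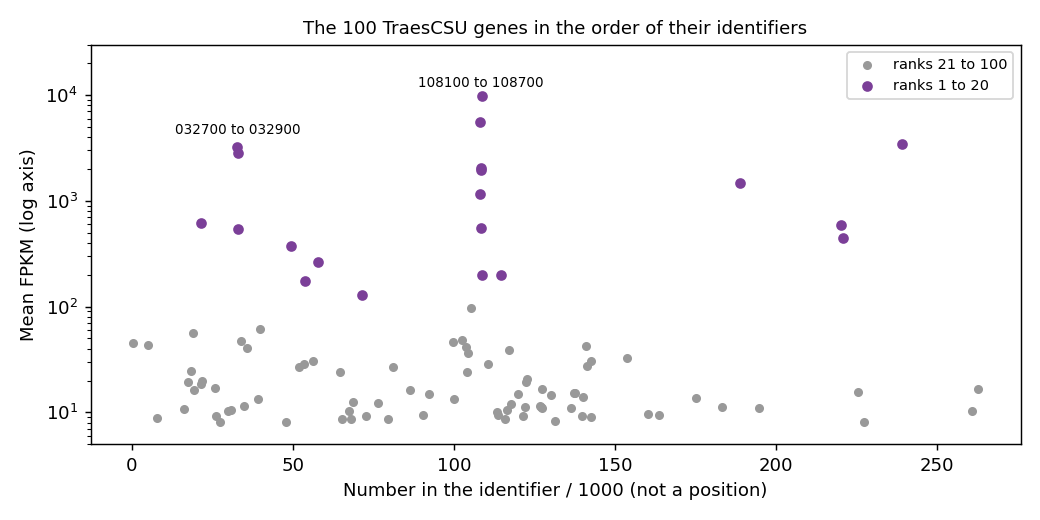
Mean FPKM over the 6 libraries (y axis, log scale) of the 100 genes against the number in their identifier, divided by 1000 (x axis), which gives an order and not a position. The 20 most abundant genes are purple, and 10 of them fall in the runs TraesCSU01G032700 to TraesCSU01G032900 and TraesCSU01G108100 to TraesCSU01G108700.

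The identifiers of the 100 genes were not spread evenly. A number below 150000 was carried by 86 of them, compared with 54.9% of the 2729 TraesCSU genes listed. The 2729 include the 1829 genes at 0 in every library. The share among expressed TraesCSU genes was not counted, so this difference may not be particular to the 100. Next to another of the 100 stood 21 genes, in 7 runs, of which the longest was the run of 7 and the next were TraesCSU01G032700 to TraesCSU01G032900 and TraesCSU01G127100 to TraesCSU01G127300. Neighbours at lower level could differ. TraesCSU01G127100 ranged from 9.63 to 12.6 FPKM over the 6 libraries, whereas TraesCSU01G127200 and TraesCSU01G127300 were highest in IE replicate 2, at 25.5 and 23.3 FPKM, and lowest in IE replicate 3, at 3.36 and 4.84 FPKM. The lengths recovered for the 100 genes ran from 171 to 3579 bases with a median of 876, compared with 1126 bases for all genes tested and 682.5 to 926 bases in the lists of 100 from the placed chromosomes. Lengths that are multiples of 3 made up 79% of the 100, compared with 68.2% of all genes tested and 74% to 92% in the placed lists. By length the 100 genes therefore lay within the range of the placed lists, of which 18 of 21 had a shorter median and 18 of 21 a higher share of multiples of 3.

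Set beside the 100 most abundant genes of each of the 21 placed chromosomes, the unplaced genes took a middle share. Their mean share of 3.20% of the summed FPKM lay between those of chromosome 3A (1.02%) and chromosome 1D (13.7%), and 8 placed lists were above it. The last of the 100 unplaced genes had 8.05 FPKM, lower than in any placed list, where the last gene had 23.2 to 52.6 FPKM. The share of the unplaced genes was 1.87 times as high in IE replicate 3 as in IE replicate 2, above all 21 placed lists, of which the highest was 6A at 1.71. The list of 1D held as many genes with the order IE replicate 3 highest and IE replicate 2 lowest, 12. Median log2 fold changes of the placed lists were between -0.17 and -0.01, and the -0.06 of the unplaced genes lay among them.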

How the data were processed

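Endosperm libraries (3 IE, 3 RE) were grouped by their labels. Per the methods and the submitters' processing notes, reads were cleaned with fastp and mapped with HISAT2 to the Chinese Spring genome (IWGSC1_popseq.31), and the authors deposited FPKM values. The counting tool and its use of strand are not given in the sources used here. FPKM does not remove a change in the composition of a library, and the 100 most abundant of all genes took 52.5% to 62.8% of a library. FPKM values are whole fragments times a step, from which lengths and totals were recovered (100% of 86042 genes within 0.001 fragments). The smallest length at which the fragments of every library were whole was taken, so this fit was part of the search. A recovered length can be too short where the numbers of fragments of a gene share a divisor. In each library the recovered fragments cover 99.4% to 99.5% of its total.

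The regions were tested against each other with limma 3.58.1 (R 4.3.3, trend, log2(FPKM + 0.1), mean of at least 0.5 FPKM, Benjamini-Hochberg over 51830 genes), tested on simulated data. Single values were compared by exact permutation. Python 3.11.15 with numpy 2.4.6, pandas 2.3.3, numba 0.67.0 and matplotlib 3.10.9 did the rest. Named are the 20 most abundant genes, the 5 largest changes in each direction and the gene named in the study's text. Genes and lists were chosen with earlier results of these data known. Alternatives changed the pseudocount, filter, scaling, variance trend, replicate block, test, ranking and libraries.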

Additional observations from a re-analysis of the deposited data

How the results depend on the processing

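The count of 0 genes called held under all 15 limma alternatives, in which the smallest adjusted p of the 100 genes ranged from 0.0564 (without IE replicate 2) to 0.897 and between 6 and 29 of them had an unadjusted p of at most 0.05. It was 1 with the unadjusted p. The median log2 fold change, -0.06, was 0.0614 with median-ratio scaling and -0.12 for the 100 genes ranked on the RE mean. Rankings on the median, the IE mean or the RE mean shared 98, 96 and 94 of the 100 genes. Leaving out each library in turn, the difference in summed share ran from -0.125 to 0.945 percentage points, and the percent of genes below in every IE library from 13 to 31. Of the 29 named genes, 16 kept their direction throughout. With median-ratio scaling, log2 fold changes turned to 0.0592 for TraesCSU01G239000, 0.0107 for TraesCSU01G108400, 0.0136 for TraesCSU01G220200, 0.0684 for TraesCSU01G108300 and 0.0954 for TraesCSU01G053700. Over the libraries left out, they turned sign within -0.18 to 0.51 for TraesCSU01G108700, -0.54 to 0.25 for TraesCSU01G108100, -0.51 to 0.43 for TraesCSU01G239000, -0.61 to 0.37 for TraesCSU01G108400, -0.11 to 0.72 for TraesCSU01G108500, -0.22 to 0.51 for TraesCSU01G108200, -0.51 to 0.27 for TraesCSU01G220200, -0.55 to 0.52 for TraesCSU01G108300, -0.21 to 0.83 for TraesCSU01G220600, -0.00355 to 0.83 for TraesCSU01G049400, -0.17 to 0.40 for TraesCSU01G108600, -0.12 to 0.063 for TraesCSU01G053700 and -2.40 to 0.72 for TraesCSU01G262700. The cause was not tested. With a replicate block, 0 genes were called, and the smallest adjusted p of the 100 was 0.366. In this balanced design the block cannot move the difference in share, 0.465 percentage points, or the median log2 fold change, -0.06. The labels do not say whether same-numbered IE and RE libraries came from the same grains or plots. The deviations of the IE and RE libraries correlated across genes at 0.111, 0.0588 and -0.203 for replicates 1, 2 and 3. With 3 libraries a region, these values cannot decide whether the libraries are paired. Depth limits most the 2 genes that had fewer than 10 fragments in some library, while 77 had at least 100 in every library. The part of depth in the other results was not tested.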

Other observations

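The other 290 TraesCSU genes tested had 174 log2 fold changes below 0 and 116 above, with a median of -0.10 beside the -0.12 of all genes tested. Every IE library was above every RE library for 14 of them and below for 38, which is 4.83% and 13.1%. The 100 most abundant newly assembled genes, whose identifiers are not those of the reference annotation, had a median log2 fold change of 0.09, with 57 above 0 and 43 below.

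TraesCSU01G140900 and TraesCSU01G035800, chosen after their values were seen, have distant identifier numbers and means of 42.3 and 40.4 FPKM. Their levels were almost equal in every library, at a ratio of TraesCSU01G140900 to TraesCSU01G035800 between 1.00 and 1.18, while each varied 1.85-fold and 1.99-fold over the libraries. TraesCSU01G220600 and TraesCSU01G220200, which are near each other in identifier number, had a ratio between 0.519 and 0.949. Whether these pairs are copies of each other was not tested.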
